A study of Mus musculus with 8 samples.

Results

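The genes described here are 10 secreted or cytosolic proteins of antimicrobial defense and the acute phase response, *Slpi*, *Wfdc12*, *Defb1*, *S100a7a*, *Orm1*, *Lcn2*, *Saa3*, *Saa1*, *S100a8* and *S100a9*. They were taken by symbol from the count matrices of mouse tongue epithelium, where each symbol matched 1 of 32285 listed genes. Viable single cells were taken 15 days after induction and sequenced as 8 droplet libraries, with 4 groups of 2. All mice were adult littermates that carried Krt14-CreERT and LSL-rtTA, in which tamoxifen injected into the tongue and doxycycline chow switch on the tetON transgenes in cells that express *Krt14*, the keratin of the basal layer, and per the study's methods all also carried a tetON H2B-GFP reporter. Control mice (N) had no further transgene, E mice carried tetON_E6-E7, the oncogenes of a human papillomavirus, Y mice carried tetON_YAP1S127A, a constitutively active form of the coactivator YAP1, and EY mice carried both. Cells were sorted by size and viability, and no depletion of leukocytes is described. Libraries are named by group and replicate, and the title of N2 carries 2 animal numbers, so it may pool animals. The 10 genes were chosen by their measured levels in the epithelial cells of these same libraries, and *Saa1* and *Saa3* also by their levels in monocytes, so these values are a description. Where the members were fitted along with all genes, how many passed the threshold is given beside the share of all genes that did, and nothing is read from those epithelial counts.

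Squamous epithelia of the mouth meet microbes with secreted peptides, protease inhibitors and metal-binding proteins, many of which are raised in wounds and by interleukin-17, interleukin-1 and interleukin-6 signaling. Several of the same genes are also among the most abundant transcripts of neutrophils and inflammatory monocytes, so in droplet data their transcripts can reach other cells as free RNA. *Slpi* encodes the secretory leukocyte protease inhibitor and *Wfdc12* a smaller protein with the same type of whey acidic protein domain. *Defb1* encodes a beta-defensin, *S100a7a* the mouse counterpart of psoriasin, and *S100a8* with *S100a9* the subunits of calprotectin, which withholds zinc and manganese from microbes. *Lcn2* encodes lipocalin 2, which binds bacterial siderophores. *Orm1* (orosomucoid), *Saa1* and *Saa3* (serum amyloid A) are acute phase genes, of which *Saa3* is the form made largely outside the liver.

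The members lie on 5 chromosomes of GRCm38, all as protein-coding genes. *Slpi* (ENSMUSG00000017002, chr2:164354070-164389095, minus strand) and *Wfdc12* (ENSMUSG00000042845, chr2:164189231-164190608, minus strand) are 163.5 kb apart in 1 locus, and *Lcn2* (ENSMUSG00000026822) is at chr2:32384633-32388252 on the minus strand. *S100a7a* (ENSMUSG00000063767, chr3:90654017-90658669), *S100a8* (ENSMUSG00000056054, chr3:90668978-90670035) and *S100a9* (ENSMUSG00000056071, chr3:90692632-90695721) are neighbors in the S100 cluster, the first 2 on the plus strand and *S100a9* on the minus strand. *Orm1* (ENSMUSG00000039196) is at chr4:63344560-63348163 on the plus strand. *Saa3* (ENSMUSG00000040026, chr7:46711998-46715700) and *Saa1* (ENSMUSG00000074115, chr7:46740497-46742980) are both on the minus strand and 24.8 kb apart. *Defb1* (ENSMUSG00000044748) is at chr8:21776599-21795185 on the plus strand.

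Promoter windows from 250 bases before to 50 after the start site were taken from RefSeq on GRCm38.p6 for 8 of the 10 members, all but *Orm1* and *Defb1*. They were searched on both strands for TTGCNNAA (C/EBP), GGGA and CC with any 4 bases between (NF-kB), TGANTCA (AP-1), GGAATG (TEAD, the DNA-binding partners of YAP1) and TTCCNGGAA (STAT). The C/EBP letters were found in 6 of the 8 windows (*Lcn2*, *S100a9*, *Saa1*, *Saa3*, *Slpi* and *Wfdc12*, 1 match each) and in 10.8% of all 32851 windows of the same length. The TEAD letters were found in 1 window, that of *S100a7a*, which held 3 matches, and in 14.7% of all windows. The 3 TEAD matches start 171, 164 and 85 bases before the start site, and a STAT match overlaps the first 2. *S100a7a* also held the single NF-kB match (20.7% of all windows), no member held the AP-1 letters (7.81% of all windows), and *S100a8* held none of the 5 motifs. A match is a description of the letters, not a bound site. Shown in lower case, with matches in capitals and 5′ to 3′ on the strand of the gene, are the member with the highest epithelial level outside S100a8 and S100a9 (*Slpi*, chr2:164356458-164356757), the siderophore binder (*Lcn2*, chr2:32387690-32387989), the serum amyloid gene with the highest level (*Saa3*, chr7:46715627-46715926) and the member with TEAD matches (*S100a7a*, chr3:90654052-90654351).
Slpi: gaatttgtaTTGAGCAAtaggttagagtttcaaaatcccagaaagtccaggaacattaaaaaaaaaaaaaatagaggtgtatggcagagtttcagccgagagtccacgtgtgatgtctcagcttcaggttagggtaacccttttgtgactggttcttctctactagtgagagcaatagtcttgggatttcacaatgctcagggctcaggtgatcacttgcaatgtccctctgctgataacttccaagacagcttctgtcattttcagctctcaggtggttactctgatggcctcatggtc
Lcn2: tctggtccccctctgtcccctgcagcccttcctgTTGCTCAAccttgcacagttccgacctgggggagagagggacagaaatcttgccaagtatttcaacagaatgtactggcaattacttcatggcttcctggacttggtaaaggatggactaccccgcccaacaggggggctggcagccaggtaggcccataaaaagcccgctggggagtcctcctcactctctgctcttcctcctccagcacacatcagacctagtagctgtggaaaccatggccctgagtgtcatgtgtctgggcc
Saa3: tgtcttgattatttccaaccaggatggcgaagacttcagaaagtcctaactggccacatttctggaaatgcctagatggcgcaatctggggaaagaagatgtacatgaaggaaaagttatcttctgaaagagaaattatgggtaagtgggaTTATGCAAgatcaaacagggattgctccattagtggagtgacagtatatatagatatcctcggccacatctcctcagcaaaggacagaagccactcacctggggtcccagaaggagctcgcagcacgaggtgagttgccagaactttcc
S100a7a: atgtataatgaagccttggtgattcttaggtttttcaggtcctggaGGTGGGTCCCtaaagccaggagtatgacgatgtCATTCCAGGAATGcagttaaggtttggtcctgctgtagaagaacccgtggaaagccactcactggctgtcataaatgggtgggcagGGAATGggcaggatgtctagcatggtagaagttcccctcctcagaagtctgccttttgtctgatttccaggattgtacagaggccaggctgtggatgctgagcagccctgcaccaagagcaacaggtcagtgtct

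Epithelial cells were those in which *Krt5*, *Krt14*, *Krt15*, *Krt13* and *Krt6a* together made up at least 0.5% of the UMIs (unique molecular identifiers, which count molecules) and *Ptprc*, the pan-leukocyte gene, was at 0. With the first library of each group given first, there were 3447 and 415 such cells in N, 4055 and 553 in E, 1289 and 1001 in Y, and 170 and 2027 in EY, of 33111 cells clustered from all libraries. Their summed UMIs ran from 2454816 (EY1) to 55154619 (E1), so that levels, given as CPM (UMIs of the gene scaled to 1000000 summed UMIs of the class), were least precise in EY1. *Yap1*, the check of the labels, was at 32.8 to 47.8 CPM in the N and E libraries and at 166 to 452 CPM in the Y and EY libraries. T-cell-like cells, which should lack most of these genes, were used as a reference for free RNA in each library (182 to 2018 cells). They were shallower in every library, with medians of 7181 and 3204.5 UMIs in EY1 and EY2 against 13534.5 and 18451 in epithelial cells. If free RNA adds a like number of UMIs to each droplet, its CPM is higher in shallower cells, and this was not tested. Within the epithelial gate, the 12 neutrophil markers summed to 56.45 and 364 CPM in N, 73.7 and 60.1 in E, 58.6 and 28.8 in Y, and 272 and 57.1 in EY, with 0 to 6 of the 12 at 0 in a library, and the 13 monocyte or macrophage markers summed to 73.2 to 302 CPM. Of the defining neutrophil genes, *Retnlg*, *Csf3r*, *Ngp*, *Camp* and *Cxcr2* together gave 22 and 11 UMIs in the epithelial cells of N, 50 and 16 in E, 259 and 22 in Y, and 460 and 1528 in EY. EY1 held the fewest epithelial cells. The 5 genes gave the most UMIs in EY2, but over 37020044 summed UMIs against 2454816 in EY1. Their level was highest in EY1, where *Retnlg* alone was at 141 CPM, beside 24.5 CPM in EY2. The 12 markers were highest in N2. They include *Ltf*, also a leading gene of a gland-like cluster led by *Wfdc18*, and 10 gland or duct markers were highest in N2 too, at 741 CPM. The part of *Ltf* in the N2 sum was not tested. Values without cells that carried immune RNA are given beside the results it bears on. At most 0.393% of the barcodes of the smaller library of a pair were shared (EY1 and Y1, 16 barcodes).

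*Slpi* was low in the epithelial cells of controls and high in those with the YAP1 transgene. Its level was 5.64 and 1.83 CPM in N, 18.6 and 4.63 in E, 90.7 and 152 in Y, and 278 and 619 in EY. The 4 libraries with the YAP1 transgene were all above the other 4, and both EY libraries were above both Y libraries. The T-cell-like cells of the same libraries held 0 to 3.31 CPM in N and E, 16.7 and 6.04 in Y, and 35.6 and 82.9 in EY, so the epithelial level exceeded the reference in every library but N2. A level of summed cells cannot tell more positive cells from more RNA per cell. The share of cells with a UMI was also counted, after thinning each cell to 2000 UMIs. This evens the depth, but the share also rises with RNA of the gene per cell, so it does not separate them either. A *Slpi* UMI was then found in 0.551% (95% Clopper-Pearson interval 0.332 to 0.860) of epithelial cells of N1, 0.241% of N2, 0.765% of E1 and 1.27% of E2, against 6.60% (5.305 to 8.096) of Y1, 8.99% of Y2, 22.5% (16.4 to 29.5) of EY1 and 37.9% (35.8 to 40.04) of EY2. The same share in T-cell-like cells, thinned to the same depth, was 0 to 0.897% in N and E, 3.58 and 1.35% in Y and 8.93 and 14.6% in EY. Without thinning, *Slpi* was found in 2.44 to 4.34% of epithelial cells in N and E, in 22.6 and 25.8% in Y and in 49.4 and 75.9% in EY. Intervals cover counting error only.

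The control level of *Slpi* depended on which cells were kept. With a minimum of 200 genes per cell in place of 1000, N2 rose from 1.83 to 41.1 CPM (706 in place of 415 cells) and E2 from 4.63 to 18.0, and without the upper limits N2 was at 45.8 CPM (741 cells), Y1 at 237 and Y2 at 351. EY2 stayed at 624 and 638 CPM under these choices. The YAP1 libraries were above the others under both. The cells that these limits remove or keep are described with the clusters below.

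*Wfdc12*, in the same locus, did not follow *Slpi*. It was at 1.10 and 1.49 CPM in N, 1.85 and 4.87 in E, 9.72 and 5.39 in Y, and 8.96 and 0.405 in EY. EY2, the library with the highest *Slpi*, had the lowest *Wfdc12* of all, while EY1 was near Y1, the highest. T-cell-like cells held at most 1.004 CPM. In E2, 55 of its 59 UMIs came from a single cell. A single cell also gave 16 of 22 UMIs in EY1 and 71 of 234 in Y1. In E1 and Y2 it gave 31 of 102 and 32 of 106. The EY1 level, and so its nearness to Y1 and its distance from EY2, thus rested largely on a single cell.

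*Defb1*, the beta-defensin, was at 1.79 and 3.09 CPM in N, 1.89 and 0.661 in E, 21.8 and 41.4 in Y, and 66.0 and 97.0 in EY. No library with the YAP1 transgene overlapped one without it, and EY was above Y in both libraries. T-cell-like cells held 0 to 0.249 CPM in N and E and 1.39 to 5.84 CPM in Y and EY, a small part of the epithelial level. At 2000 UMIs per cell, 3.34 and 7.59% of epithelial cells in Y and 7.10 and 14.4% in EY held a *Defb1* UMI, against 0.181 to 0.406% in N and E. In T-cell-like cells the highest share was 0.913% (EY2).

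*Orm1*, an acute phase plasma protein gene usually read in liver, followed the same order of groups. Its level was 0.301 and 0.572 CPM in N, 0.580 and 0.0826 in E, 14.5 and 20.1 in Y, and 32.2 and 47.5 in EY. The 4 YAP1 libraries did not overlap the other 4, where the level rested on 15, 5, 32 and 1 UMIs in N1, N2, E1 and E2. T-cell-like cells held 0 to 5.84 CPM. The close paralogs *Orm2* and *Orm3* gave 0 and 5 UMIs in epithelial cells of all libraries, beside the 350 to 1760 of *Orm1* in Y1, Y2 and EY2.

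*S100a7a*, the psoriasin gene, was less even. It was at 0.261 and 3.89 CPM in N, 0.163 and 2.89 in E, 3.24 and 19.4 in Y, and 30.6 and 31.6 in EY. Y1 lay within the range of the libraries without the transgene, whereas both EY libraries were above all others. T-cell-like cells held at most 4.67 CPM (EY2). In N2 and E2 single cells gave 29 of 34 and 18 of 35 UMIs.

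**Figure D1:**
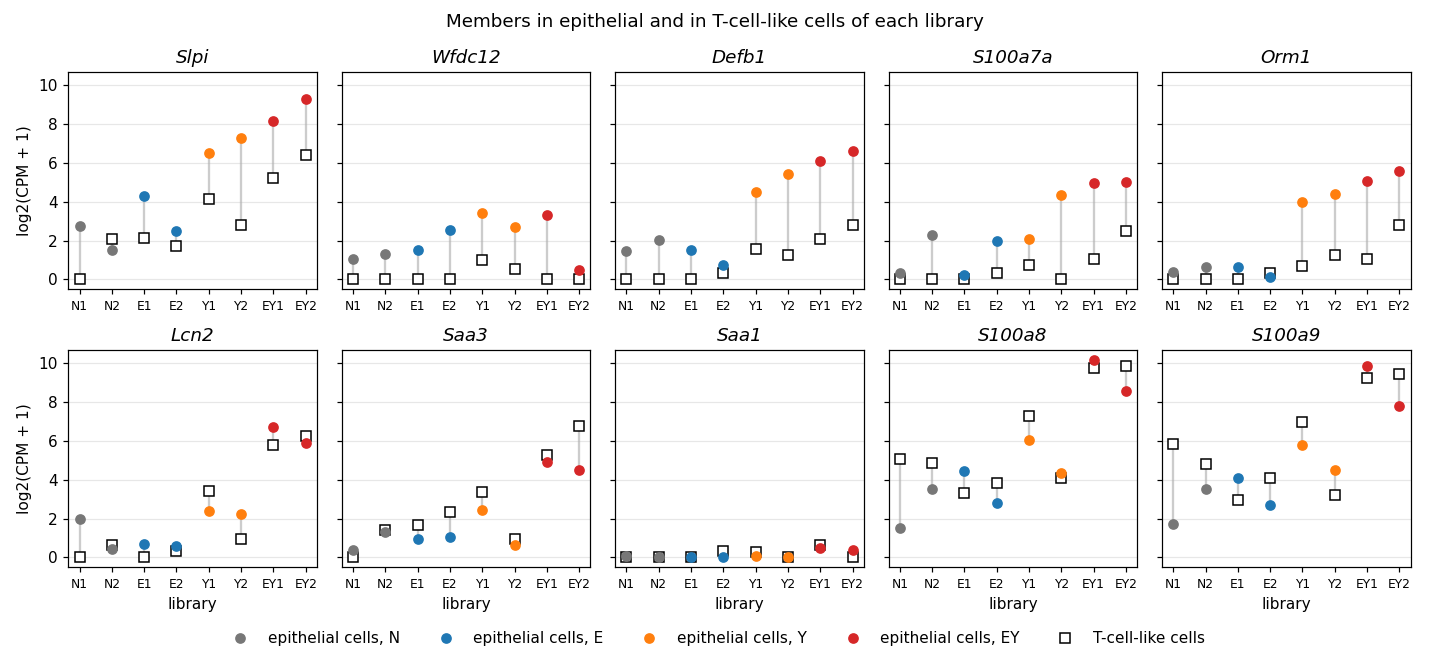
Level of each member in epithelial cells (filled circles, colored by group) and in T-cell-like cells (open squares) of the same library, as log2(CPM + 1). For *Slpi*, *Defb1* and *Orm1* the Y and EY circles lie far above both the N and E circles and the squares of their own library. For *S100a8*, *S100a9* and *Saa3* the circles and squares rise together.

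*Lcn2*, the siderophore binder, was far higher in EY than in Y. Its epithelial level was 2.89 and 0.343 CPM in N, 0.616 and 0.496 in E, 4.20 and 3.71 in Y, and 102 and 58.6 in EY. The EY libraries stood alone, while Y was close to N1, whose level came largely from 1 cluster given at the end of this paragraph. In CPM, the T-cell-like reference was of the same size in EY, at 54.2 and 73.6, and was 9.73 and 0.929 in Y. T-cell-like cells were shallower, and as UMIs EY1 held 251 in 170 epithelial and 102 in 224 T-cell-like cells. EY2 held 2169 in 2027 epithelial and 63 in 220 T-cell-like cells. When cells with any UMI of 12 immune genes were left out, EY1 fell to 17.5 CPM over 32 cells and EY2 to 48.6 over 1247 cells. When only the 6 and 11 gate cells that clustered with immune, erythrocyte or stromal cells were left out, EY1 was at 50.8 and EY2 at 47.6 CPM, so 1 value of the pair rested on 6 cells. In neutrophil-like cells of EY2 there were 0.557 *Lcn2* UMIs for each UMI of the 5 neutrophil genes named above, in its T-cell-like cells 0.399 and in its epithelial cells 1.42. At the neutrophil ratio, 39.3% of the 2169 epithelial *Lcn2* UMIs of EY2 and 66.6% of the 251 of EY1 would be counted. In N1, 70.8% of the *Lcn2* UMIs came from 74 cells of a cluster led by *Wfdc18*, *Ltf* and *Msln*, which held 111 CPM, and without that cluster the N1 level was 0.9 CPM or less.

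*Saa3* and *Saa1* did not stand above the reference in epithelial cells. *Saa3* was at 0.281 and 1.49 CPM in N, 0.907 and 1.07 in E, 4.49 and 0.559 in Y, and 28.5 and 21.4 in EY, and T-cell-like cells held more than epithelial cells in 7 of 8 libraries, up to 107 CPM in EY2. *Saa1* gave 16 UMIs in all epithelial cells, 12 of them in EY2, and was at 0 in N2, E1, E2 and Y2, which allows up to 0.343, 0.0544, 0.248 and 0.153 CPM at 3 counts. Its near copy *Saa2* gave 4 UMIs, all in EY2.

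*S100a8* and *S100a9*, the calprotectin subunits, were the highest members in the epithelial cells of EY1 and came after *Slpi* in EY2, and their levels in the reference were high as well. *S100a8* was at 1.85 and 10.5 CPM in N, 21.0 and 6.03 in E, 64.0 and 19.0 in Y, and 1148 and 370 in EY. *S100a9* was at 2.29 and 10.6 CPM in N, 16.1 and 5.45 in E, 53.8 and 21.7 in Y, and 906 and 221 in EY. Y2 was at or a little below E1 for *S100a8* and above it for *S100a9*, and both EY libraries were above all others. In T-cell-like cells *S100a8* was at 861 and 905 CPM in EY, 153 and 16.3 in Y and 8.82 to 32.1 in N and E, so the epithelial level was below the T-cell-like level in N1, N2, E2, Y1 and EY2 and above it in E1, Y2 and EY1. After thinning, *S100a8* was found in 68.6 and 24.96% of EY epithelial cells and in 80.8 and 61.6% of EY T-cell-like cells. Thinning takes more UMIs from the deeper epithelial cells. Without it the shares were 100 and 84.8% of EY epithelial cells and 100 and 81.8% of EY T-cell-like cells. In E1 a single cell gave 213 of the 1157 UMIs. In EY1, 5 gate cells in the neutrophil-like cluster led by *Camp* and *Ngp* gave 44.7% of the *S100a8* and 55.9% of the *S100a9* UMIs. The most in 1 cell of EY1 was 1010 of 2818 and 1076 of 2223 UMIs. In EY2, 7 cells of that cluster gave 31.7 and 37.5%, and in Y1, 1 cell gave 18.8 and 23.3%. The place of EY1 above the reference thus rested in large part on these 5 cells.

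The level of *S100a8* was therefore set against that of the 5 neutrophil genes, since RNA from 1 source keeps its genes in 1 ratio. Neutrophil-like cells held 4.45 (Y1) to 9.01 (E2) *S100a8* UMIs per neutrophil-gene UMI, and T-cell-like cells with at least 100 neutrophil-gene UMIs (Y1, EY1 and EY2) held 4.94, 7.17 and 4.90. Epithelial cells held 5.95 in Y1, 6.13 in EY1 and 8.97 in EY2, so at the neutrophil ratio 74.7, 81.5 and 58.1% of their *S100a8* UMIs would be counted. In E1 and Y2 the epithelial ratio was 23.1 and 17.0, with 33.6 and 35.4% counted. For *Slpi* the same count was 3.52% in EY1, 0.345% in EY2 and 0.609% in Y1. Monocyte-like cells of EY2 in the cluster led by *Saa3* held 125.5 *S100a8* UMIs per neutrophil-gene UMI, and their part in the epithelial ratio was not tested.

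**Figure D2:**
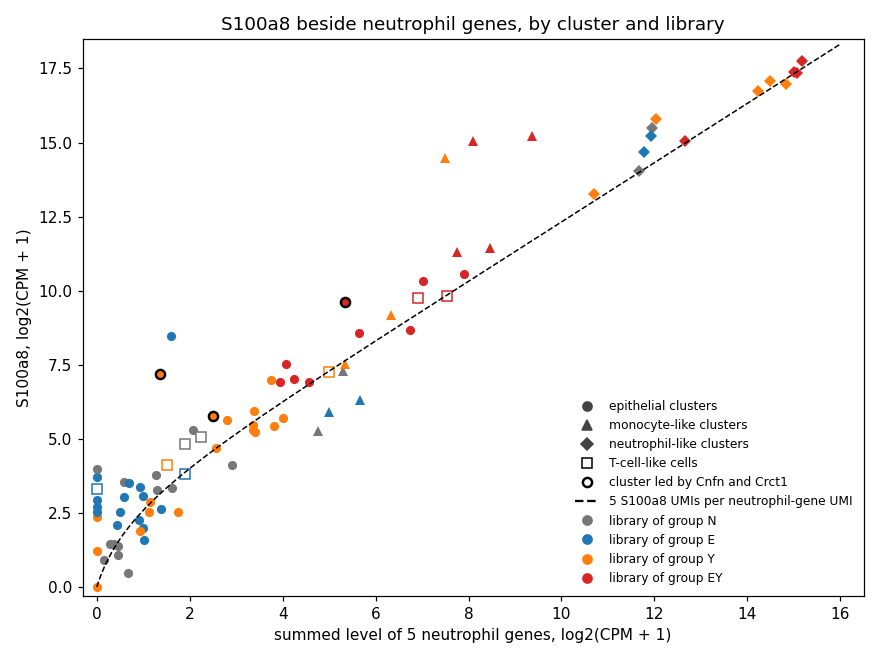
*S100a8* against the summed level of *Retnlg*, *Csf3r*, *Ngp*, *Camp* and *Cxcr2*, both as log2(CPM + 1), for clusters of each library with 20 or more cells and for T-cell-like cells, with color for the group and shape for the cell class. The dashed line marks 5 *S100a8* UMIs per neutrophil-gene UMI. Most epithelial points and the T-cell-like squares lie near it, and the 3 points of the cluster led by *Cnfn* and *Crct1* (black rims) and the monocyte-like triangles of the cluster led by *Saa3* lie above, as does the point of the *Il24* cluster in E1 (357 CPM).

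Between epithelial clusters, *Slpi* and *S100a7a* were concentrated in the cluster led by *Cnfn*, *Crct1* and *Sprr2f*, genes of the cornifying upper layers. The members and the gene lists were kept out of the variable genes used for clustering, but cells cluster on genes that vary with these, so the comparison is a description. In that cluster *Slpi* reached 1297 CPM in Y1 (48 cells), 1172 in Y2 (92 cells) and 2104 in EY2 (253 cells), and it held 64.0, 75.3 and 41.3% of the *Slpi* UMIs of these libraries in 3.72, 9.19 and 12.5% of their epithelial cells. *S100a7a* reached 51.1, 152 and 153 CPM there and 70.5, 76.2 and 59.0% of its UMIs were from this cluster. Other members were less so or not at all, since in EY2 the cluster held 12.8% of the *Lcn2*, 13.5% of the *Saa3*, 14.4% of the *Defb1*, 16.4% of the *Orm1* and 26.1% of the *S100a8* UMIs, and in Y1 3.76% of *S100a8* and 2.78% of *Saa3*. *S100a8* in the same cluster was at 53.8 CPM in Y1, 145 in Y2 and 794 in EY2, with 11.6, 93.0 and 20.2 UMIs per neutrophil-gene UMI. The 19 cells of EY1 there held 878 CPM. The highest level was in E1, without the YAP1 transgene, at 2365 CPM on 292 UMIs of 6 cells, 25.2% of its *S100a8* UMIs. The 2 cells of E2 held 0. The Y2 ratio rested on 3 neutrophil-gene UMIs and the EY2 ratio on 177, and in neutrophil-like cells of the same libraries the ratio was 6.02 and 5.21. *S100a9* in the cluster was at 177 CPM in Y2 and 374 in EY2, where T-cell-like cells held 8.36 and 684 CPM. In Y2, where neutrophil RNA was low, both calprotectin genes of this cluster were thus above the reference. In E1 the 6 cells of this cluster held *S100a9* at 1661 CPM, where T-cell-like cells held 8.82 CPM of *S100a8* and 6.62 of *S100a9*. High *S100a8* was also seen in E1 in another cluster, that led by *Il24* and histone genes. Its 51 cells held *S100a8* at 357 CPM and 30.8% of the *S100a8* UMIs of that library, with 178 UMIs for each of 2 neutrophil-gene UMIs.

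The libraries differed widely in how many of these upper-layer cells they held, while the *Slpi* level within them overlapped between libraries with and without the YAP1 transgene. The cluster had 0 cells in both N libraries and 6 and 2 in E, whereas Y held 48 and 92 and EY 19 and 253, which is 0 to 0.362% of the epithelial cells without the YAP1 transgene and 3.72 to 12.5% with it. The few cells of E1 and E2 held *Slpi* at 3945 and 603 CPM, on 487 UMIs, of which 407 came from a single cell, and on 11 UMIs. EY1 held 1544 CPM, and E1 was above and E2 below all the YAP1 libraries. Without the upper limits on genes and UMIs the cluster had 4 cells in N2, which held *Slpi* at 1981 CPM and 64.2% of the *Slpi* UMIs of that library, and 8 each in E1 and E2 at 3285 and 977 CPM, beside 1300, 1369, 1610 and 2164 CPM in the YAP1 libraries. With a minimum of 200 genes, 7 cells of N1 and 23 of N2 joined the cluster, with *Slpi* at 13440 and 16010 CPM on 91 and 339 UMIs. *Wfdc12* and *S100a7a* of E2 were also in these cells, since 2 cells gave 94.9 and 68.6% of their UMIs. In the cells kept without upper limits *Orm1* was at 17.0 to 34.7 CPM in N2, E1 and E2 and at 41.6 to 60.9 in the YAP1 libraries, without overlap, whereas *Defb1*, at 84.2 to 249.5 and 60.7 to 158.6 CPM, overlapped. These values rest on the few cells given above in N and E.

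With the cluster left out, an alternative chosen after the values were seen, *Slpi* was at 5.64 and 1.83 CPM in N, 9.83 and 3.72 in E, 34.2 and 41.6 in Y, and 140.4 and 414.1 in EY. The Y level thus fell below 0.5 times its value over all epithelial cells, while the 4 YAP1 libraries were still above the other 4. *Orm1* remained at 13.3 and 17.9 CPM in Y and 23.9 and 45.3 in EY, and *Defb1* at 20.3 and 32.5 in Y and 65.0 and 94.6 in EY. *S100a8* of Y2 went from 19.0 to 5.35 CPM and *S100a9* from 21.7 to 4.85, which is within the range of N and E. *S100a7a* of Y2 went from 19.4 to 5.13 CPM, near N2 (3.89). The log2 fold change of Y against N went from 4.88 to 3.20 for *Slpi*, from 2.90 to 2.66 for *S100a8* and from 2.83 to 0.81 for *S100a7a*, and for *Orm1* from 5.56 to 5.40.

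*Defb1* and *Orm1* were spread differently. In the cluster led by *Plb1*, *Gsta3* and *H19*, which held 48.0 and 55.6% of the epithelial cells of Y1 and Y2, *Orm1* was at 22.0 and 24.8 CPM with 74.3 and 66.9% of its UMIs, and *Defb1* was at 31.5 and 35.8 CPM with 71.0 and 47.1% of its UMIs. In the cluster led by *Il24* and histone genes, which held 66.2% of the epithelial cells of EY2, *Slpi* was at 447 CPM, *Defb1* at 102, *Orm1* at 51.1 and *Lcn2* at 49.5. *Defb1* is itself among the 10 leading genes of that cluster. In the cluster led by *Pappa* and *Hpgd*, which held many cells of the N and E libraries, *Slpi* was at 0.5 to 1.7 CPM in N and E and at 5.7 and 12.3 CPM in Y. The cluster led by *Krt24* and *Foxq1* was present in both sets, and there *Orm1* was at 0 to 0.6 CPM in N and E against 22.7 and 35.5 in Y, and *Defb1* at 0 to 2.9 CPM against 4.5 and 23.6. Within that cluster *Slpi* stayed low, at 0 to 3.7 CPM in N and E and 6.1 and 4.7 CPM in Y. *Wfdc12* in the cluster led by *Serpinb12* and *Tgm3* was at 49.7 CPM in the pooled Y cells and at 1.9 and 1.4 CPM in N and E. The Y pool had only 41 cells of Y1 and 20 of Y2. They held 9.83 and 36.8% of the 234 and 106 epithelial *Wfdc12* UMIs of these libraries.

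**Figure D3:**
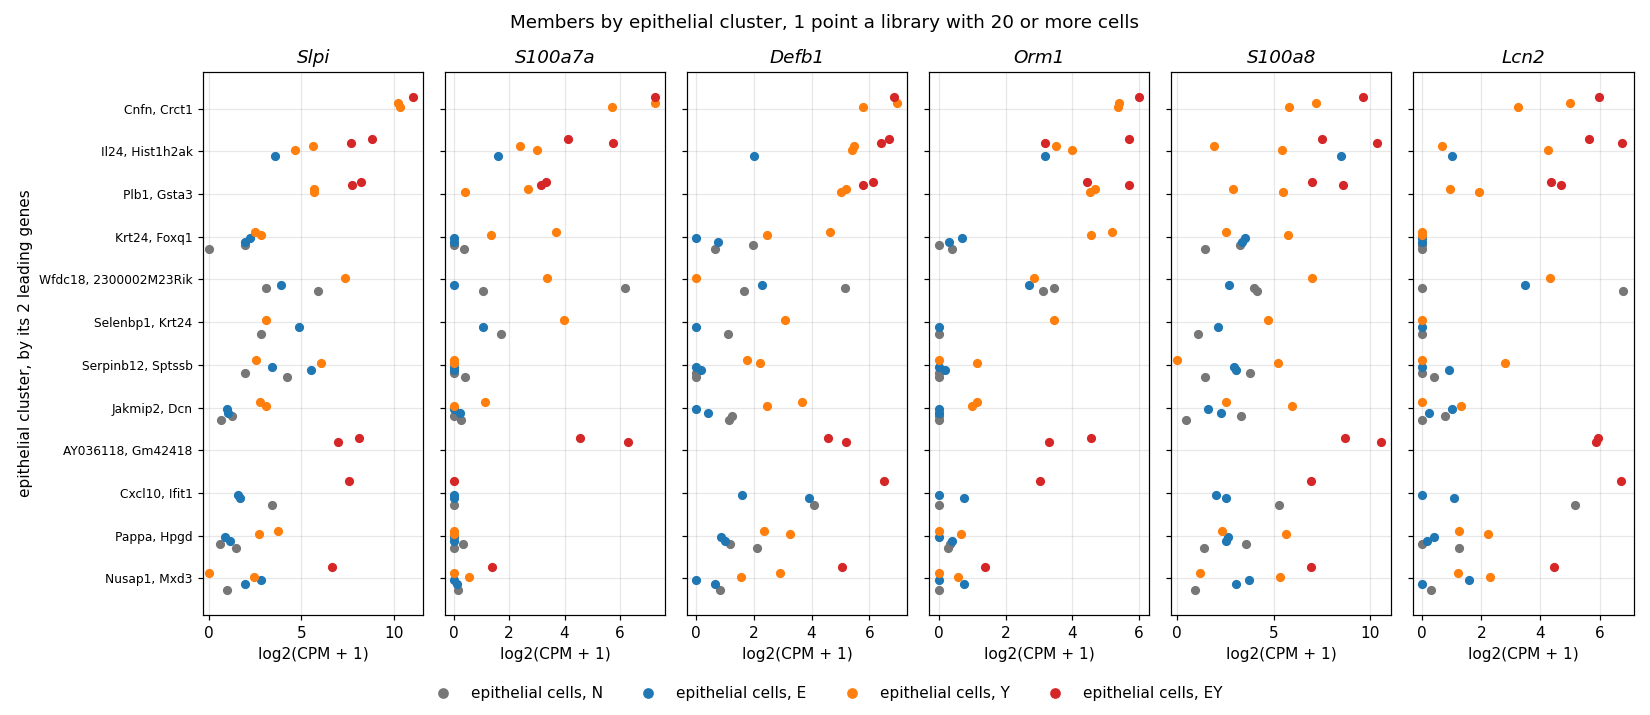
Level of 6 members, as log2(CPM + 1), by epithelial cluster (rows, named by 2 leading genes), with 1 point for each library that had 20 or more cells there, colored by group. *Slpi* and *S100a7a* peak in the cluster led by *Cnfn* and *Crct1*, whereas *Defb1* and *Orm1* are about as high in the clusters led by *Il24* and by *Plb1*.

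Fitted over all genes with edgeR, the members' changes in epithelial cells were large and uneven. With both transgenes against N, the log2 fold change was 6.82 (SE 0.88) for *Slpi*, 6.83 (SE 0.59) for *Orm1*, 5.22 (SE 0.55) for *Defb1*, 4.34 (SE 1.57) for *S100a7a*, 5.35 (SE 0.62) for *Lcn2*, 7.08 (SE 1.25) for *S100a8*, 6.57 (SE 1.15) for *S100a9*, 5.29 (SE 1.08) for *Saa3* and 1.30 (SE 1.34) for *Wfdc12*. Of the 10 members, *Saa1* did not pass the filter on low counts, and 7 passed among 9 tested, all higher (Benjamini-Hochberg adjusted p under 0.05), where 9.31% of all 13555 genes were called higher, 9.5% lower and 18.8% in either direction. The members were chosen with this contrast known, so the count is no evidence about them, as with all the epithelial comparisons below. Without N1 only *Lcn2* of the members was called and without EY2 only *Orm1*, where 5 and 25 of all genes were called. With the YAP1 transgene alone against the same N libraries, *Orm1* (5.56, SE 0.57) and *Defb1* (3.80, SE 0.53) passed the threshold, again on the values that chose them, where 0.384% of all genes were called higher and 0.457% in either direction, and *Slpi* had a log2 fold change of 4.88 (SE 0.81). *Lcn2* had 1.01 (SE 0.57) in that comparison and was not called. With the gland-like cluster (led by *Wfdc18*) left out, edgeR called *Lcn2* and *Slpi* as well, where 171 of 13418 genes were called. Neither *Orm1* nor *Defb1* was called without N1, N2, E1, E2 or Y2, or with the *Cnfn* cluster left out. With E6-E7 alone, *Slpi* had 1.49 (SE 0.73), *Defb1* −0.70 (SE 0.55) and *Lcn2* −1.82 (SE 0.66). In the main fit 0 of the 9 were called, where 0.236% of all genes were called higher and 0.243% in either direction, 33 genes. DESeq2 called 0 of the 9 and 131 genes. Without the low-count filter edgeR called *Lcn2*, *S100a8*, *S100a9* and *Slpi* of the 10 members, where 367 of 21743 genes were called. The *Lcn2* value rests in part on N1, where 70.8% of its UMIs came from the gland-like cluster. These 3 comparisons share the N libraries.

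Across all 8 libraries, the effect of the YAP1 transgene at either E6-E7 state was 6.16 (SE 0.44) for *Orm1*, 5.12 (SE 0.55) for *Slpi*, 4.88 (SE 0.56) for *Defb1*, 4.48 (SE 0.99) for *S100a8*, 4.30 (SE 0.96) for *S100a9* and 3.55 (SE 0.89) for *Saa3*, the 6 members called, where 5.26% of all genes were called higher and 8.98% in either direction. These calls too rest on the values by which the members were chosen, and nothing is read from them. Without E1 or E2 only *Slpi*, *Defb1* and *Orm1* of these were called, and the same 3 with the *Cnfn* cluster left out. *Lcn2* had 3.88 (SE 1.35), *S100a7a* 3.79 (SE 1.12) and *Wfdc12* 1.46 (SE 0.93). With the gland-like cluster left out, *Lcn2* and *S100a7a* were called as well, where 1664 of 13418 genes were. The CPM of the 4 YAP1 libraries lay wholly above the other 4 for 5 members (*Slpi*, *Defb1*, *Orm1*, *Lcn2* and *S100a9*), where 8.13% of all genes did so. The effect of E6-E7 was 2.84 (SE 0.95) for *S100a8*, 2.49 (SE 0.92) for *S100a9*, 2.22 (SE 0.86) for *Saa3*, 1.79 (SE 1.40) for *Lcn2* and 1.73 (SE 0.48) for *Slpi*. It was 0.95 (SE 0.38) for *Orm1*, 0.76 (SE 1.06) for *S100a7a*, 0.55 (SE 0.51) for *Defb1* and 0.12 (SE 0.91) for *Wfdc12*. In the main fit edgeR called 0 members, where 0.406% of all genes were called higher, while DESeq2 called *Slpi*. Without the low-count filter edgeR called 6 of 10 members, where 765 of 21743 genes were called. With keratins at 2% or more of UMIs it called *Lcn2*, where 99 of 12543 genes were. By how much the YAP1 effect differed with and without E6-E7 was 6.16 (SE 0.87) for *Lcn2*, 2.12 (SE 0.71) for *Defb1*, 1.05 (SE 0.79) for *Orm1* and 0.45 (SE 0.99) for *Slpi* on the log2 scale. No gene of 13555 was called for this difference by edgeR (0%), and 1562 had an unadjusted p under 0.05.

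**Figure D4:**
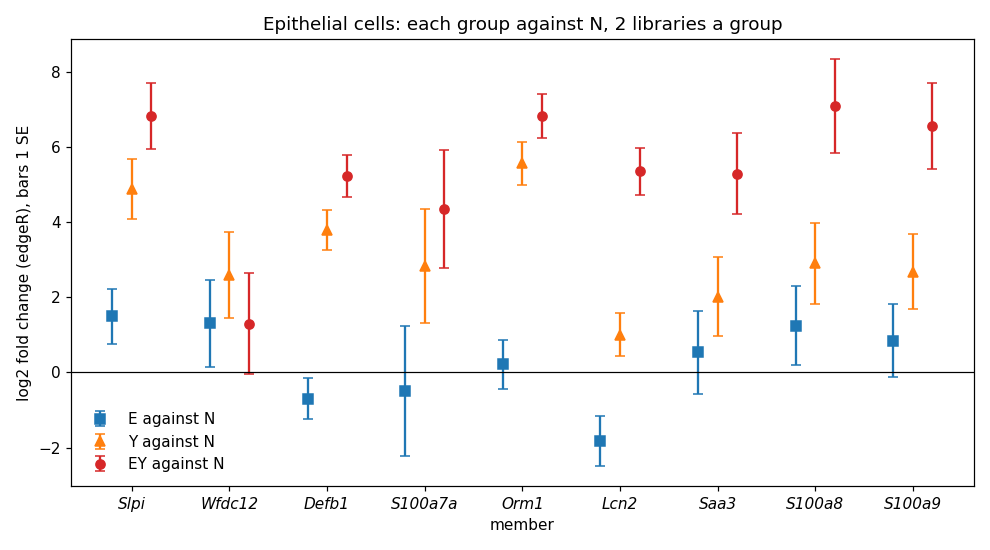
Log2 fold change in epithelial cells against N for the 9 members that passed the filter, in E (squares), Y (triangles) and EY (circles), with bars of 1 SE from edgeR, 2 libraries a group. The EY points of 8 members lie above 4, and *Lcn2* is the member whose Y point (1.01) lies farthest below its EY point (5.35) in relation to their SEs.

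The changes of *S100a8*, *S100a9* and *Lcn2* moved more with the immune RNA in the gate than those of *Slpi*, *Orm1* and *Defb1*. When gate cells with immune RNA were left out, the EY against N log2 fold change of *Lcn2* was 4.21, of *S100a8* 6.01 and of *S100a9* 5.21, while that of *Slpi* was 6.63, of *Orm1* 6.75 and of *Defb1* 5.29. A minimum of 200 genes, and likewise no upper limits, moved *Slpi* to 4.38. When the T-cell-like level was subtracted as CPM, *Slpi* in EY was at 389 ± 208 CPM (SD, n = 2) and *Orm1* at 36.4 ± 7.49. *Saa3* was then at 0 in both EY libraries, and *S100a8* and *S100a9* were at 287 and 316 CPM in EY1 and at 0 in EY2. As T-cell-like cells were shallower, the subtraction may take away too much, so a 0 does not show that only free RNA was present. In EY2, 13702 *S100a8* UMIs lay in 2027 epithelial cells and 775 in 220 T-cell-like cells. The EY1 values include the 5 gate cells of the cluster led by *Camp* and *Ngp*.

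Neutrophil-like cells gave a comparison whose own values the choice of members did not use. The epithelial levels that were used can, however, hold neutrophil RNA of the same libraries. At the neutrophil ratio, 58.1 to 81.5% of epithelial *S100a8* UMIs in Y1, EY1 and EY2 would be counted. For *Lcn2* this was 39.3 to 73.9%. The calls for *Lcn2*, *S100a8* and *S100a9* are thus not independent of that choice. In neutrophil-like cells these 3 genes were higher with the YAP1 transgene. *Lcn2* was at 371 and 1943 CPM in N, 468 and 1210 in E, 8144 and 4743 in Y, and 12531 and 18194 in EY, and the 4 YAP1 libraries were all above the other 4. Its log2 fold change for the YAP1 transgene was 3.80 (SE 0.67, edgeR Benjamini-Hochberg adjusted p 0.00870, all 4 YAP1 libraries above the other 4, as for 3.42% of genes). *S100a8* was at 16254 and 54812 CPM in N, 26871 and 46106 in E, 125709 and 101291 in Y, and 172153 and 170111 in EY (log2 fold change 2.44, SE 0.43, edgeR adjusted p 0.00870). *S100a9* was at 28052 and 54772 CPM in N, 38114 and 47651 in E, 105269 and 90814 in Y, and 116285 and 124505 in EY (1.87, SE 0.32, edgeR adjusted p 0.00811). All 3 were called with each library left out in turn (edgeR adjusted p at most 0.0355 for *Lcn2*, 0.0400 for *S100a8* and 0.0436 for *S100a9*). The 3 were all called higher of 6 members tested, where 3.86% of 5151 genes were called higher and 7.38% in either direction. *Slpi* was abundant in neutrophils of every group, at 613 to 3222 CPM in N and E and 1452 to 4130 in Y and EY, with overlapping groups (1.07, SE 0.43, edgeR adjusted p 0.165). *Orm1* (2.70, SE 0.98, edgeR adjusted p 0.118) and *Saa3* (1.93, SE 1.07, edgeR adjusted p 0.312) did not pass the threshold.

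Different clusters held the neutrophil-like cells of the groups. Those of N and E were nearly all in the cluster led by *Csf3r*, *Acod1* and *Hdc* (65 of 66 cells in N1, 310 of 326 in N2, 151 of 155 in E1 and 114 of 115 in E2), and those of Y and EY were mostly in clusters led by *Retnlg* and by *Camp*, *Ngp* and *Lcn2*, whose 10 leading genes include *S100a9*, *Lcn2* or *S100a8*. Within the cluster led by *Csf3r* and *Hdc* alone, *S100a8* was at 16699 and 45885 CPM in N, 26560 and 37970 in E, 9811 and 57503 in Y1 and Y2, and 33629 in EY1, and the groups overlapped (log2 fold change 0.03, SE 0.63, edgeR adjusted p 0.985, where the alternatives ranged from 3.06e-07 to 0.985). *S100a9* there had −0.39 (SE 0.56, edgeR adjusted p 0.774, range 2.99e-08 to 0.774). *Lcn2* in that cluster was at 382 and 690 CPM in N, 478 and 651 in E, 766 and 1068 in Y, and 2575 in EY1, without overlap (1.29, SE 0.49, edgeR adjusted p 0.435, range 7.67e-12 to 0.435). Y1, Y2 and EY1 had 21, 20 and 28 cells in it and EY2 had 4 and was left out. With a minimum of 1000 genes per cell in place of 200, 5 libraries were left with 20 or more neutrophil-like cells, 0 of the 3 genes were called by edgeR, and 6 of 8075 genes were called in all. In the *Csf3r* and *Hdc* cluster 3 of 2314 genes were called.

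Monocyte-like cells carried high *Saa3*, *S100a8*, *Slpi* and *Lcn2*, most of all in EY, with wide spread between libraries. *Saa3*, whose monocyte values were known before and are a description, was at 514 and 745 CPM in N, 152 and 3077 in E, 1573 and 775 in Y, and 7781 and 24538 in EY. *Saa1* was at 0 to 1.504 CPM in N and E, 18.9 and 0.474 in Y, and 12.4 and 238 in EY, with *Saa2* at up to 8.68 CPM. *S100a8* was at 38.8 and 160 CPM in N, 58.9 and 267 in E, 2622 and 242 in Y, and 24049 and 20704 in EY. Its log2 fold change for the YAP1 transgene was 5.72 (SE 1.25, edgeR adjusted p 0.0726), with Y2 inside the range of E. *S100a9*, at 2.98 to 24.1 CPM in N and E against 825, 48.4, 9804 and 8478 CPM in Y1, Y2, EY1 and EY2, had no overlap between the sets (7.20, SE 1.43, edgeR adjusted p 0.0582), where 2.77% of all genes were wholly higher. *Lcn2* was at 3.98 and 33.5 CPM in N, 3.73 and 121 in E, 210 and 47.7 in Y, and 1757 and 3216 in EY (4.29, SE 1.23, edgeR adjusted p 0.116). *Slpi* was at 424 and 766 CPM in N, 69.6 and 581 in E, 659 and 288 in Y, and 1878 and 6516 in EY (1.92, SE 1.23, edgeR adjusted p 0.416). *Orm1* was at 1.02 to 37.8 CPM in N and E and 5.79 to 18.9 in Y and EY (−0.13, SE 0.81, edgeR adjusted p 0.949). Of the 7 members tested, 0 were called by edgeR, where 0.587% of 10228 genes were called higher and 0.675% in either direction, and DESeq2 called *Lcn2*, *S100a8* and *S100a9* of the 5 that are not descriptions. edgeR called *S100a8* and *S100a9* without N2 or without Y2, with adjusted p over all alternatives from 8.47e-74 to 0.255 and from 1.60e-99 to 0.236.

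These cells fell into a cluster led by *C1qa*, *C1qb* and *C1qc*, found in all libraries, and a cluster led by *Saa3*, *Chil3* and *Nos2*, which had 20 or more cells in Y1, EY1 and EY2 only. The *Saa3* cluster held *Slpi* at 5779, 2775 and 11163 CPM in these 3 libraries, *Lcn2* at 1798, 2755 and 5409, and *S100a8* at 23090, 37938 and 34387, with 129.5, 57.8 and 125.5 *S100a8* UMIs per neutrophil-gene UMI. In the C1q cluster *Slpi* was at 425.8 and 481.9 CPM in N, 62.1 and 284.9 in E, 147.7 and 165.1 in Y, and 490.3 and 423.9 in EY (log2 fold change 0.04, edgeR adjusted p 0.992, where the alternatives ranged from 8.82e-09 to 0.992). *Lcn2* in the C1q cluster was at 2.0 to 5.2 CPM in N and E and at 51.5, 26.3, 212 and 341 CPM in Y1, Y2, EY1 and EY2, without overlap, and this was called (5.33, SE 0.50, edgeR adjusted p 0.00575, range 8.86e-48 to 0.310, a cluster chosen after the values were seen). The neutrophil genes in the same cluster were at 26.1 to 49.97 CPM in N and E and at 39.8 to 351 CPM in Y and EY, with 0.7 to 1.0 *Lcn2* UMIs for each of their UMIs in Y and EY and 0.1 in N and E. Free neutrophil RNA as a part of this difference was not tested.

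**Figure D5:**
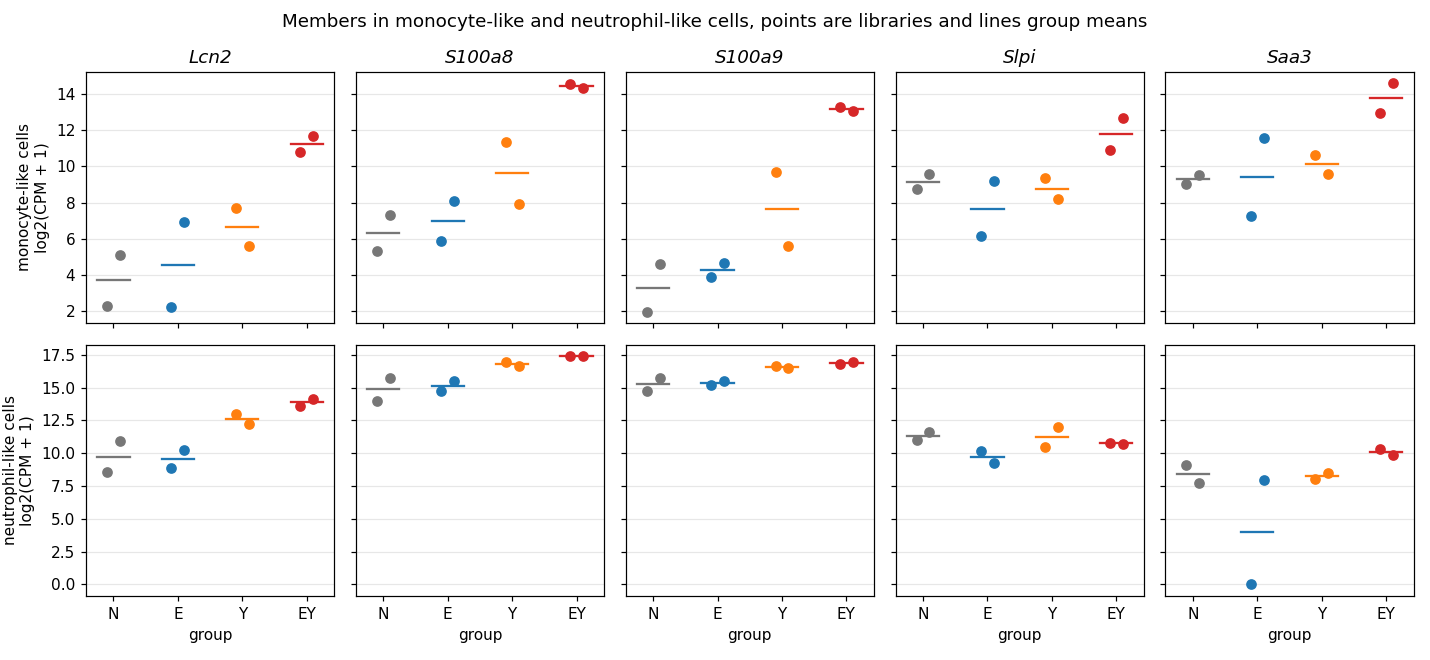
Level of 5 members in monocyte-like (top) and neutrophil-like cells (bottom), as log2(CPM + 1), by group, with points for the 2 libraries and a line for their mean. In neutrophil-like cells *Lcn2*, *S100a8* and *S100a9* of Y and EY lie above those of N and E, whereas *Slpi* overlaps between groups. In monocyte-like cells the EY points are the highest for *Lcn2*, *S100a8*, *S100a9* and *Slpi*.

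Other genes of related functions were taken from 6 lists, chosen with earlier results of these data known, and are given for epithelial cells beside the 9.31% of all genes called higher and the 9.5% called lower with EY against N. All 6 list medians were above that of all genes, and no test of a list was made. Of 28 further antimicrobial genes 17 were tested with EY against N, 6 were called higher and 4 lower, with a median log2 fold change of 0.63 beside −0.05 over all genes. The calls in these lists rest on N1 and EY2 as above. *Cxcl14*, an antimicrobial chemokine of squamous epithelium, fell from 34.5 and 36.4 CPM in N to 10.6 and 3.92 in EY (−2.56, SE 0.60, edgeR adjusted p 0.0298), and the ribonuclease gene *Rnase4* fell from 115 and 119 to 60.7 and 29.1 CPM (−1.43, SE 0.30, edgeR adjusted p 0.0221), as did *Ang* (−1.62, SE 0.33, edgeR adjusted p 0.0210). *Plac8* rose from 6.42 and 19.6 to 112 and 133 CPM (3.31, SE 0.50, edgeR adjusted p 0.0112), beside 89.5 to 276 CPM in most T-cell-like cells, and the neutrophil granule gene *Ngp* from 0.0201 and 0.343 to 37.5 and 14.7 CPM (8.26, SE 1.61, edgeR adjusted p 0.0194), beside 17.0 and 12.9 CPM in EY T-cell-like cells.

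Among 19 further protease inhibitor and WAP domain genes, 14 were tested, 4 were called higher and 3 lower (median 0.17). *Wfdc21* and *Wfdc17*, at 36.7 and 6.70 and at 37.9 and 8.37 CPM in EY1 and EY2, were called higher (7.46, SE 1.80, edgeR adjusted p 0.0318, and 5.70, SE 1.46, edgeR adjusted p 0.0364), but T-cell-like cells of EY held 29.7 and 29.2 and 58.9 and 57.2 CPM. The keratinocyte inhibitor *Spink5*, with 3.31 to 10.7 CPM in the T-cell-like cells of 6 libraries and less in the others, was at 52.1 to 86.7 CPM in N and E and at 160, 500, 186 and 166 CPM in Y1, Y2, EY1 and EY2, and its YAP1 effect was called (1.91, SE 0.33, edgeR adjusted p 0.0146). *Csta1*, a cystatin of the cornified layers, fell from 45.8 and 78.4 CPM in N to 21.2 and 5.43 in EY (−2.49, SE 0.58, edgeR adjusted p 0.0291).

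Of 10 other S100 genes of the epidermal cluster, 9 were tested and 4 were called higher with EY against N (median 0.42). *S100a6* rose from 2091 and 3814 to 7777 and 7844 CPM (1.41, SE 0.29, edgeR adjusted p 0.0213), *S100a10* from 661 and 863 to 1647 and 1420 CPM (1.02, SE 0.22, edgeR adjusted p 0.0232) and *S100a11* from 1001 and 1390 to 2512 and 2091 CPM (0.95, SE 0.22, edgeR adjusted p 0.0277). Their log2 changes were smaller than that of *S100a7a*, and their levels were far higher. Of 24 acute phase and related genes 13 were tested, 3 were called higher and 0 lower (median 0.81). *Il1rn*, the interleukin-1 receptor antagonist, rose from 14.2 and 14.4 to 29.3 and 21.4 CPM (0.81, SE 0.21, edgeR adjusted p 0.0377), and *Chil3* was at 52.6 and 19.0 CPM in EY with 73.3 and 36.2 CPM in EY T-cell-like cells (8.68, SE 2.11, edgeR adjusted p 0.0326).

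Of 30 inducing cytokines, receptors and regulators, 24 were tested and 2 were called higher (median 0.28). *Cebpd*, a transcription factor of the C/EBP family and of the acute phase response, rose from 31.4 and 21.7 CPM in N to 134 and 60.5 in EY (1.85, SE 0.38, edgeR adjusted p 0.0213), where T-cell-like cells held 8.50 and 14.02 CPM. *Il17rc*, a subunit of the interleukin-17 receptor, rose from 50.2 and 46.4 to 65.6 and 98.7 CPM (0.81, SE 0.23, edgeR adjusted p 0.0470). *Il1r1*, the interleukin-1 receptor, had a called YAP1 effect (1.26, SE 0.19, edgeR adjusted p 0.00886), from 6.69 to 11.2 CPM in N and E to 13.4 to 29.7 CPM in Y and EY. With EY against N *Il1r1* was not called (0.68, SE 0.28, edgeR adjusted p 0.1195). T-cell-like cells held *Il1r1* at 12.6 to 28.3 CPM in N and E and at 2.55, 47.9, 17.0 and 15.2 CPM in Y1, Y2, EY1 and EY2. Of 12 receptors and partners of the members 6 were tested, 2 were called higher and 1 lower, and *Anxa2* rose from 785 and 964 to 1561 and 2099 CPM (1.08, SE 0.24, edgeR adjusted p 0.0262). In neutrophil-like cells 5 of 8 tested protease inhibitor genes were called higher with the YAP1 transgene and 0 lower (median 3.25 beside 0.06 over all genes), and 2 of 8 tested antimicrobial genes (median 2.28), where 3.86% of all genes were called higher. Of the 5 protease inhibitor genes, *Stfa2* and *Wfdc17* are among the 10 leading genes of the cluster led by *Retnlg*. That cluster held mostly cells of Y and EY, so the groups differ in neutrophil clusters here too. In monocyte-like cells 1 of 11 tested antimicrobial genes and 2 of 12 acute phase genes were called higher, where 0.587% of all genes were.

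The genes whose epithelial profile over the 8 libraries was most like a member's, by the root mean square distance of centered log2(CPM + 1), differed between members. For *Slpi* they were *Klk12*, a kallikrein protease of squamous epithelium (0.61), *Slc16a3*, a lactate transporter (0.83), and *Mirt1* (1.09). *Orm1* had *Igf2bp1*, an RNA-binding protein (0.35), *Slc16a3* (0.40) and *Mirt1* (0.48), and *Defb1* had *Slc16a3* (0.41), *Mirt1* (0.43) and *Cnn3* (0.46). *Igf2bp1* was at 0.0602 to 0.572 CPM in N and E and 11.9 to 23.6 CPM in Y and EY. *S100a7a* had *Anxa3* (0.70), *Cnfn*, a gene of the cornified envelope (0.75), and *Mirt1* (0.84). *Lcn2* had *Tm4sf1* (0.82), *Ngp* (0.83) and *Il24* (0.88). *Tm4sf1* and *Il24* were at 42.0 and 25.4 and at 42.8 and 53.8 CPM in EY epithelial cells and at 1.06 to 5.84 CPM in EY T-cell-like cells, whereas *Ngp* was at 37.5 and 14.7 CPM in the former and 17.0 and 12.9 in the latter. *S100a8* and *S100a9* had *Retnlg*, *Chil3* and *Il24*, and *Saa3* had *Wfdc21*, *Upp1* and *Ngp*, of which *Retnlg*, *Chil3*, *Wfdc21* and *Ngp* are genes of neutrophils or monocytes.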

How the data were processed

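Viable single cells of tongue epithelium were measured by droplet 3′ RNA sequencing in 8 libraries, and the authors deposited filtered matrices of UMI counts per gene and cell, made with Cell Ranger on mm10. Libraries held 2916 to 8139 cells and 46483469 to 102427359 UMIs, with a median of 6239.5 to 11016.5 UMIs a cell. Nothing here is normalized by the authors.

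The study's limits on cells were kept, from 1000 (here 200 for neutrophils) to 5500 genes, no more than 30000 UMIs and a mitochondrial share of up to 7%, and no doublet caller was run. The upper limits and the *Ptprc* condition were the guard against doublets. All 33111 cells with at least 200 genes were clustered with scanpy 1.11.5 (3052 variable genes, the members and gene lists left out, 30 components, 50 neighbors, Leiden resolution 1), and clusters were named T-cell-like, monocyte-like or neutrophil-like from marker lists. Counts were summed per library and class (at least 20 cells) and fitted over all genes with edgeR 4.0.16 (TMM, quasi-likelihood, filter on low counts, R 4.3.3). A gene was called where its Benjamini-Hochberg adjusted p was under 0.05. Comparisons with N used a mean for each of the 4 groups, and the YAP1 and E6-E7 effects an additive model of both transgenes over all libraries. With 2 libraries a group, p-values measure the spread between libraries. The fit was tested on simulated counts. DESeq2 1.42.0, no low-count filter, other cell limits and gates, and leaving out each library were alternatives.

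The members and gene lists were chosen with earlier results of these data known. Named were all 10 members, up to 6 called genes of each list that reached a group mean of 20 CPM, in order of log2 fold change, and the 3 genes nearest in profile to each member that reached that level.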

Additional observations from a re-analysis of the deposited data

How the results depend on the processing

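Numbers of called genes moved widely between settings. In epithelial cells EY against N gave 2550 called genes, 4273 without the low-count filter and 6042 without upper limits per cell. Y against N gave 62, and 457 with DESeq2, 1208 without the filter, 1504 without upper limits, 198 with keratins at 2% or more of UMIs, 125 with immune RNA left out, 171 without the gland-like cluster (led by *Wfdc18*) and 0 by edgeR without the *Cnfn* cluster (1380 of 13374 genes were under 0.05 unadjusted). In E against N there were 33, and 131 with DESeq2, 367 without the filter and 66 without upper limits. The YAP1 effect gave 1217, and 2762 with DESeq2, 3250 without the filter, 6131 without upper limits and 644 without the *Cnfn* cluster. The E6-E7 effect gave 55, and 293, 765 and 36 under the first 3 of these, 99 with the stricter keratin gate and 27 with immune RNA left out. In monocyte-like cells 69 became 648 with DESeq2, 1370 without the filter and 144 without upper limits, and in neutrophil-like cells 380 became 694 with DESeq2, 6 with a minimum of 1000 genes and 3 in the *Csf3r* and *Hdc* cluster alone, where *S100a9* reversed to −0.39. The causes were not tested. The gland-like, *Cnfn*, immune-cluster, C1q and *Csf3r* alternatives were chosen after seeing the data.

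With each library left out in turn the counts ran from 5 (without N1) to 4061 for EY against N, with 25 without EY2 and 271 without N2, from 0 to 98 for Y against N, 0 to 29 for E against N, 324 to 1707 for the YAP1 effect, 1 to 36 for the E6-E7 effect, 0 to 364 in monocyte-like and 123 to 413 in neutrophil-like cells. The lone sample left in a group is assumed to vary like the others. No paired analysis was possible because the replicate numbers follow accession order and the labels name no shared animal or batch. Depth limits EY1 most, with 170 epithelial cells, and *Saa1* in every library.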
